A study of Saccharomyces cerevisiae with 24 samples.

Results

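A pair of yeast strains that each lose a factor of cytoplasmic mRNA decay on demand were compared after the same treatment: the dcp2-ideg strain, which carries an inducible degron for DCP2, and the lsm1-ideg strain, which carries one for LSM1. The comparison took the 4 dcp2-ideg and 4 lsm1-ideg libraries whose labels give the time point T60, which is 8 of the 24 libraries of the series, and covers every feature of the count table. All of these cultures of Saccharomyces cerevisiae grew in rich medium (YPD) and received 100 µM auxin (IAA) and 1 µM beta-oestradiol for 60 min at 30 °C. The series also holds wt libraries at T60 and all 3 strains without treatment (T0), with 4 libraries in each of the 6 groups, and these were used to show where a difference lay and whether it was there before the treatment. An inducible degron is a tag through which an added compound sets off the destruction of the tagged protein. The genotype labels name the degron alone, and neither the promoter of the degradation machinery nor the remaining amount of either protein was given in the sources used here. Since the labels do not state that replicates came from separate cultures, the p-values rest on the spread among these libraries, and that spread may be technical.

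Dcp2 is the catalytic subunit of the enzyme that removes the 5' cap of mRNA, after which the exonuclease Xrn1 degrades the body of the RNA from its 5' end. Lsm1 is the subunit that defines the cytoplasmic Lsm1-7 ring, which binds deadenylated mRNA near its 3' end together with Pat1 and promotes decapping. Many antisense and intergenic transcripts of yeast are capped and polyadenylated and are known to be removed by the same route, among them the Xrn1-sensitive unstable transcripts (XUTs).

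Poly(A)-selected, strand-specific libraries of the 8 samples held 41.8 to 61.6 M counts, where M stands for mega. Values are CPM, the counts of a feature per M counts of its library after TMM scaling, and a mean stands with its SD over 4 libraries. They are given at T60 in the order of replicates. Each log2 difference is dcp2-ideg minus lsm1-ideg with its standard error (SE), from edgeR's quasi-likelihood test over 11776 features. A feature is called when its adjusted p is under 0.05. The TMM factors were 1.29 to 1.49 in dcp2-ideg T60 and 0.970 to 1.01 in lsm1-ideg T60, so that the scaling itself differed between the groups. The first principal component of the 8 libraries held 59.3% of the variance and separated the strains, while lsm1-ideg T60 replicate 1 stood apart on the second (10.3%) and dcp2-ideg T60 replicate 4 on the third (8.43%). Among all 24 libraries, dcp2-ideg T0 replicate 4 stood apart on the second component (8.80%). It lay at -74.3, and dcp2-ideg T0 replicates 1 to 3 at 6.36, -3.01 and 2.65. The dcp2-ideg values at T0 and the tests of the change include this library. On the third component (7.04%) wt T60 replicate 3 stood apart, at -71.3. As a check of the labelled cells, the 7 genes specific to mating type a summed to far more CPM in wt T60 than the 6 genes of type alpha (1550.5 against 38 CPM), with MF(ALPHA)1 and MF(ALPHA)2 at under 1 CPM in the means of all 3 T60 groups.

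The mRNAs of both tagged genes were lower in the strain that carries the tag on them. DCP2 (chromosome XIV, 402541 to 405613, minus strand) measured 67.8, 77.4, 77.6 and 49.5 CPM in dcp2-ideg and 133, 131, 129 and 132 CPM in lsm1-ideg. Every dcp2-ideg library lay below every lsm1-ideg library, the difference was -0.94 ± 0.14 (SE, adjusted p = 9.01e-06), and at T0 it had been -0.22 (adjusted p = 0.781). LSM1 (chromosome X, 186854 to 187813, minus strand) measured 141, 124, 117 and 138 CPM in dcp2-ideg and 89.2, 85.3, 84.2 and 92.4 CPM in lsm1-ideg, again without overlap. Its difference of 0.57 ± 0.08 (SE, adjusted p = 2.8e-06) was already present before the treatment, at 0.68 (adjusted p = 1.13e-05), and the test of the T60 against the T0 difference did not pass (-0.11, adjusted p = 0.507). CUT207, a cryptic transcript on the opposite strand of LSM1, differed in the same way, by 1.39 at T0 and 1.49 at T60 on the log2 scale.

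After the treatment the strains differed in many RNAs. Of the 11776 features tested, 5407 (45.9%) were called, with 2952 higher in dcp2-ideg (25.1%) and 2455 lower (20.8%). A difference of at least 2-fold was seen for 1705 of the former and 396 of the latter. Before the treatment only 27 (0.229%) were called, 19 higher (0.161%) and 8 lower (0.0679%), of which 7 (0.122%) and 5 (0.0869%) were protein-coding genes (0.209% of them in all). The difference at T60 exceeded or fell short of that at T0 for 3361 features (28.5%), of which 3238 were also called at T60 with the same sign, and for 32.4% of the protein-coding genes. Among 5754 protein-coding genes, 1006 were higher (17.5%) and 1967 lower (34.2%), which is 51.7% called, whereas the XUTs called were mostly higher. In 5400 features (45.9%) the 4 dcp2-ideg libraries did not overlap the 4 lsm1-ideg libraries, and 4837 of these were called. Leaving out each of the 8 T60 libraries in turn gave 4860 to 5080 calls.

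Where the zero line lies depends on the scaling. The median log2 difference of all features was 0.07 with TMM factors and 0.53 when libraries were scaled by their total counts, and the calls then split into 5760 higher and 685 lower (89.4% higher, against 54.6%). For protein-coding genes the split became 2686 higher and 539 lower, and their median moved from -0.15 to 0.31. Fitting the protein-coding genes alone with TMM gave 1515 higher and 1306 lower. With total counts the calls of HTB2, SFG1, MCM7, DSE2, SDH3 and DCP1, all named below, were lost (adjusted p 0.0640 to 0.517). The values below are therefore relative to the bulk of the measured RNAs, and a poly(A) library holds no measure of the RNA per cell.

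**Figure D1:**
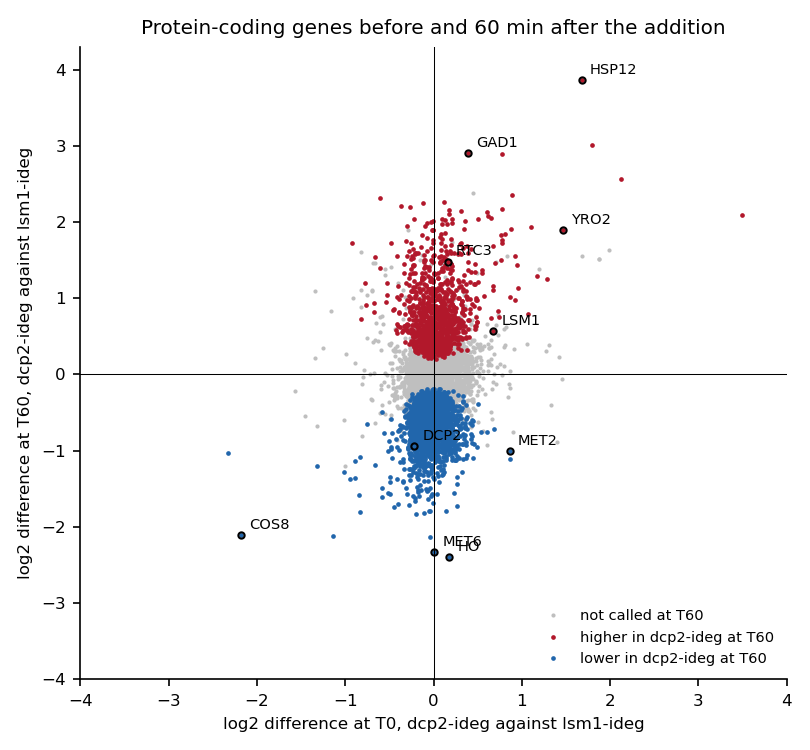
Each point is a protein-coding gene, with its log2 difference between dcp2-ideg and lsm1-ideg before the treatment (T0, horizontal) and 60 min after it (T60, vertical), coloured where called at T60 (1006 higher in red, 1967 lower in blue). The points spread along the vertical axis and little along the horizontal one, with HSP12, YRO2, LSM1 and COS8 among the few that were called at both times and MET2 called with opposite signs.

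The treated strains stood at unequal distances from the treated wt strain. Against wt T60, 6166 features (52.4%) were called in dcp2-ideg T60, 3434 higher (29.2%) and 2732 lower (23.2%), and 59.2% of protein-coding genes. In lsm1-ideg T60 462 (3.92%) were called, 307 higher (2.61%) and 155 lower (1.32%), and 4.88% of protein-coding genes (2.75% higher, 2.14% lower). Both sets of values use the same wt libraries, and they are given below for some of the genes. Other genes named below were also called in lsm1-ideg T60 against wt T60. Lower there were LSM1 (-0.88), COS8 (-0.64), POL30 (-0.46), HXK2 (-0.38), SDH3 (-0.45), HTB1 (-0.58), HTB2 (-0.56) and GLK1 (-0.70). Higher were RPL8A (0.41), GAL7 (0.86), IMD2 (0.46), GPX1 (0.78), YDJ1 (0.54), SSE1 (0.48), BTN2 (1.49) and XUT_5F-62 (1.19), all as log2 differences from wt.

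The 10 mRNAs with the largest higher values in dcp2-ideg differed in what they encode. They were picked among called genes whose libraries did not overlap between the groups, so the absence of overlap was set by the choice. HSP12, the gene of a small membrane-stabilising stress protein (chromosome VI, 107215 to 107751, plus strand), measured 199, 181, 254 and 324 CPM in dcp2-ideg and 22.3, 21.3, 16.5 and 5.75 CPM in lsm1-ideg. The lowest dcp2-ideg library was several times above the highest lsm1-ideg one, with a log2 difference of 3.86 ± 0.34 (SE, adjusted p = 3.63e-09), of which 1.68 (adjusted p = 0.0107) was seen at T0 and 2.18 (adjusted p = 0.000572) came on top of it. GAD1, which encodes glutamate decarboxylase (chromosome XIII, 770634 to 772658, plus strand), measured 124, 115, 135 and 148 CPM in dcp2-ideg and 24.7, 14.9, 17.6 and 12.3 CPM in lsm1-ideg. The difference of 2.91 ± 0.20 (SE, adjusted p = 1.23e-10) had been 0.39 (adjusted p = 0.781) at T0, and wt T60 held 19.5 ± 4.06 CPM (SD, n = 4), in the range of lsm1-ideg. PPT2, whose product attaches the phosphopantetheine arm to mitochondrial acyl carrier protein, measured 37.5, 35.5, 30.4 and 43.1 CPM in dcp2-ideg and 8.52, 8.60, 8.54 and 7.15 CPM in lsm1-ideg. SYM1, which encodes an inner-membrane protein of mitochondria, differed by 2.15 ± 0.20 (SE, adjusted p = 6.47e-09), and SDH6, for an assembly factor of succinate dehydrogenase, by 2.05 ± 0.16 (SE, adjusted p = 6.07e-10). Neither gene's groups overlapped. The SDH6 values were 24.4, 29.9, 28.8 and 32.6 CPM in dcp2-ideg and 8.34, 7.43, 6.14 and 6.09 CPM in lsm1-ideg. HXK1, one of the hexokinases, differed by 2.13 ± 0.30 (SE, adjusted p = 3.35e-06), and PHM8, a phosphatase of phosphate-starved cells, by 2.05 ± 0.28 (SE, adjusted p = 1.69e-06). The rest of the 10 largest were YEL073C (2.21), YHL042W (2.11) and GPG1 (2.08), at 1.83 to 19.4 CPM in the 8 libraries. HSP12, SYM1, HXK1, PHM8 and SDH6 each overlap another annotated feature on the same strand, so that reads may be shared with it. The same holds for many genes named below, among them YGP1, YRO2, ANB1, RPL7A, HXK2, ENO2, HXT1, GCY1, CPR1, UBI4 and ATG16.

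Genes of the general stress response, which the transcription factors Msn2 and Msn4 are known to switch on, were mostly higher: 33 of 44 were higher and 2 lower, with a median log2 difference of 0.88 against -0.15 for all protein-coding genes. At T0, 2 of the 44 were called. The list's summed level was 2307 CPM in wt T60, 3654 in dcp2-ideg T60 and 2010 in lsm1-ideg T60. Glycogen enzymes were among the higher members. GSY2, the main glycogen synthase, measured 143, 106, 143 and 131 CPM in dcp2-ideg and 40.2, 35.4, 37.3 and 31.8 CPM in lsm1-ideg, a difference of 1.85 ± 0.15 (SE, adjusted p = 1.25e-09). GPH1, which breaks glycogen down, differed by 1.80 ± 0.22 (SE, adjusted p = 4.34e-07), and GLC3, the branching enzyme, by 1.44 ± 0.21 (SE, adjusted p = 4.34e-06). TSL1, a subunit of trehalose synthase, measured 80.01, 51.4, 74.2 and 44.1 CPM in dcp2-ideg and 35.6, 23.6, 29.3 and 25.1 CPM in lsm1-ideg, with the lowest dcp2-ideg library above the highest lsm1-ideg one. ALD3, an aldehyde dehydrogenase, had 50.4, 47.4, 53.2 and 54.2 CPM in dcp2-ideg and 14.2, 16.1, 14.2 and 17.8 CPM in lsm1-ideg (1.72 ± 0.12 SE, adjusted p = 1.33e-10). The members that were lower were SOD2 and GRE2, at -0.36 and -1.23.

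RTC3 and DDR2 are members in which lsm1-ideg itself stood away from wt. RTC3 (chromosome VIII, 280743 to 281327, plus strand) measured 206, 122, 183 and 200.1 CPM in dcp2-ideg and 68.5, 60.9, 63.5 and 61.5 CPM in lsm1-ideg, without overlap, and 5.06 ± 0.599 CPM in wt T60 (SD, n = 4). Its difference between the degron strains was 1.48 ± 0.14 (SE, adjusted p = 9.26e-09), while it was 5.14 (adjusted p = 3.76e-17) above wt in dcp2-ideg and 3.65 (adjusted p = 2.86e-14) above wt in lsm1-ideg on the log2 scale. DDR2 measured 9.37, 8.18, 13 and 8.25 CPM in dcp2-ideg and 2.35, 1.79, 1.65 and 1.79 CPM in lsm1-ideg, and against wt T60 it was 0.99 (adjusted p = 0.00285) in dcp2-ideg and -1.36 (adjusted p = 0.00421) in lsm1-ideg. YGP1, a secreted glycoprotein of the cell wall induced by starvation, measured 132, 119, 141 and 127 CPM in dcp2-ideg and 48.8, 46.8, 40.2 and 41.8 CPM in lsm1-ideg, again without overlap. That difference of 1.55 ± 0.15 (SE, adjusted p = 8.82e-09) was 0.12 (adjusted p = 0.515) against wt in dcp2-ideg and -1.43 (adjusted p = 6.41e-07) in lsm1-ideg, and it was already 0.92 (adjusted p = 0.00127) between the degron strains at T0.

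A stress response element, the STRE (AGGGG, or CCCCT on the other strand), was searched on both strands of the 250 bases before each feature start. It was found in 19.1% of the 5753 windows, in 29.0% of those of higher genes, in 38.4% of those of genes at least 2-fold higher and in 13.4% of those of lower genes. Of the 44 windows of the stress list, 77.3% held it. The HSP12 window is shown because it belongs to the most strongly raised mRNA. It lies at chrVI:106965-107214 on the plus strand of R64 (sacCer3) and was read from that genome, with 2 STRE matches in capitals.
HSP12: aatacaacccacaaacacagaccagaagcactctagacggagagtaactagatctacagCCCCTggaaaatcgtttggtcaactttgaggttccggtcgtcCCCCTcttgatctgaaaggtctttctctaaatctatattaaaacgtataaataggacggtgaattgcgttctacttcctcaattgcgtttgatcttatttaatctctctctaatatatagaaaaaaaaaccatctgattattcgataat

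**Figure D2:**
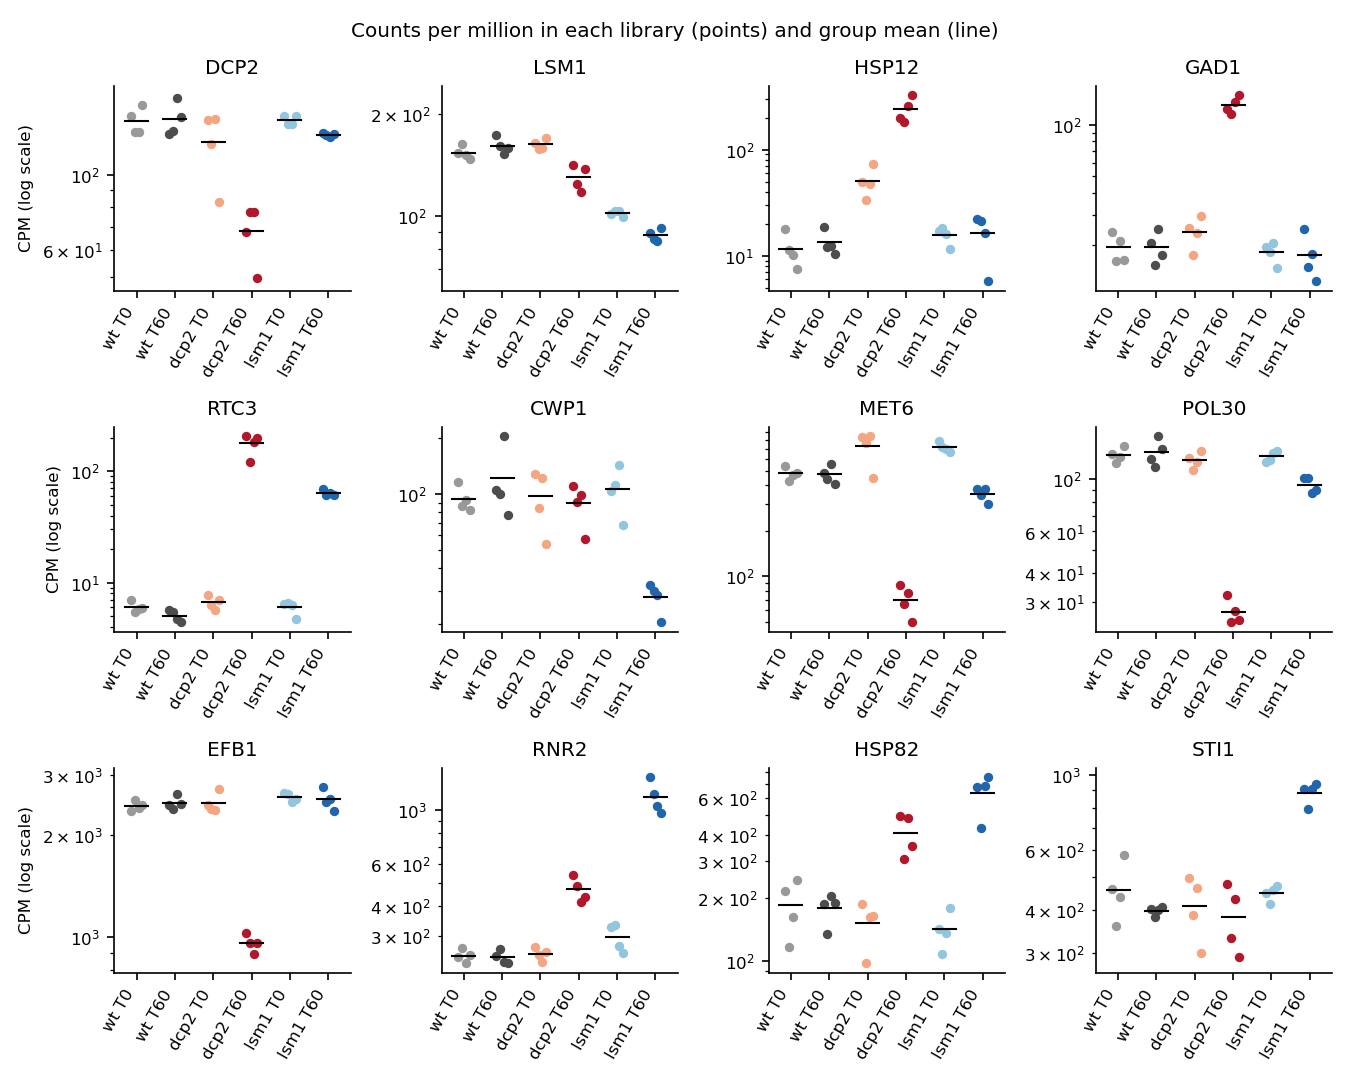
CPM in each library (points, log scale) and the group mean (line) for 12 genes in wt, dcp2-ideg and lsm1-ideg at T0 and T60. Among the T60 groups, HSP12 and GAD1 were highest in dcp2-ideg, MET6, POL30 and EFB1 were lowest in it, CWP1 was lowest in lsm1-ideg, and RNR2, HSP82 and STI1 were highest in lsm1-ideg.

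The 10 largest lower mRNAs also differed in what they encode. The same conditions applied to them, so their absence of overlap between the groups was likewise set by the choice. HO, which encodes the endonuclease of mating-type switching (chromosome IV, 46171 to 48081, minus strand), measured 21, 13.2, 19.1 and 16.4 CPM in dcp2-ideg and 75.7, 102, 95.4 and 95.5 CPM in lsm1-ideg. No libraries overlapped, and the difference of -2.40 ± 0.14 (SE, adjusted p = 1.63e-11) compared with 0.17 (adjusted p = 0.79) at T0. MET6 (chromosome V, 339649 to 342233, minus strand), which encodes methionine synthase, measured 87.2, 65.1, 77 and 49.5 CPM in dcp2-ideg and 379.9, 344, 376 and 301 CPM in lsm1-ideg. Its difference was -2.33 ± 0.18 (SE, adjusted p = 3.77e-10), and it had been 0.01 at T0, when the means were 725 ± 189 CPM in dcp2-ideg and 721 ± 52.3 CPM in lsm1-ideg. In dcp2-ideg at T0, replicates 1 to 3 held 842, 767 and 845 CPM of MET6 and replicate 4 held 446 CPM. RNR1 encodes the large subunit of ribonucleotide reductase and measured 132, 129, 144 and 90.3 CPM in dcp2-ideg and 391, 471, 439 and 462 CPM in lsm1-ideg. POL30, the gene of the sliding clamp PCNA, measured 32.1, 24.6, 27.6 and 25.1 CPM in dcp2-ideg and 100.9, 102, 87.2 and 90.3 CPM in lsm1-ideg. Both differed without overlap, by -1.83 ± 0.15 (SE, adjusted p = 1.33e-09) and -1.80 ± 0.11 (SE, adjusted p = 1.63e-11). TIR1, a cell wall mannoprotein gene, differed by -2.12 ± 0.29 (SE, adjusted p = 2.14e-06). Of this -1.14 (adjusted p = 0.119) was seen at T0, and the test of the change did not pass (-0.98, adjusted p = 0.0675). PHD1, a transcription factor gene of filamentous growth, differed by -1.82 ± 0.19 (SE, adjusted p = 5.61e-08). ANB1, the eIF5A gene used without oxygen, had -1.81, and ACM1, for an inhibitor of the anaphase-promoting complex, -1.79. COS8, a subtelomeric gene (chromosome VIII, 6351 to 7646, plus strand), measured 5.06, 4.40, 4.91 and 4.77 CPM in dcp2-ideg and 24.3, 23.7, 16.1 and 18.4 CPM in lsm1-ideg, but its difference of -2.11 ± 0.18 (SE, adjusted p = 2.26e-09) was there at T0 (-2.18, adjusted p = 5.57e-08) and the test of the change did not pass (0.07, adjusted p = 0.87).

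Of 24 genes of the G1 to S transition and replication, 20 were lower and the other 4 were not called (median -0.85). With total counts 14 were lower and 4 higher. CLN2, a G1 cyclin, measured 37.2, 29.96, 35 and 19.6 CPM in dcp2-ideg and 94.8, 106, 91.7 and 102 CPM in lsm1-ideg, with a difference of -1.70 ± 0.19 (SE, adjusted p = 1.04e-07), and TOS4, a gene expressed in G1, differed by -1.38 ± 0.11 (SE, adjusted p = 5.58e-10). Genes of the G2 and M cluster gave 10 lower and 1 higher of 14, with CDC20, the activator of the anaphase-promoting complex, at -0.78 ± 0.10 (SE, adjusted p = 8.33e-07) and SFG1, a transcription factor of filamentous growth, at -0.62 ± 0.09 (SE, adjusted p = 4e-06). With total counts this cluster gave 1 lower and 3 higher, with a median of -0.11. Genes of the M to G1 interval gave 5 lower of 16, a share near the 34.2% of all protein-coding genes, with a median of -0.31 that turned to 0.14 with total counts. The lower ones included MCM7 (-0.65), a subunit of the replicative helicase, and DSE2 (-0.65), a secreted protein specific to daughter cells. Against wt T60, DSE2 was 0.11 (adjusted p = 0.597) in dcp2-ideg and 0.76 (adjusted p = 0.00571) in lsm1-ideg. Of 10 histone genes 6 were lower, with HTB1 at -0.75 ± 0.11 (SE, adjusted p = 7e-06) and HTB2 at -0.66 ± 0.11 (SE, adjusted p = 1.69e-05), and 1 was lower with total counts. Against wt T60, the median of the histone list was -1.17 in dcp2-ideg and -0.58 in lsm1-ideg.

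An MCB element (ACGCGT, which reads the same on both strands), known as the site of the G1 factor MBF, was present in 62.5% of the 24 windows of the G1 to S list and in 3.49% of all windows. It was found in 5.49% of the windows of lower genes and 1.69% of those of higher genes. The windows of RNR1 (chrV:298489-298738, plus strand) and POL30 (chrII:425818-426067, minus strand) are shown with their 3 and 1 matches in capitals, since both genes were among the 10 largest lower ones.
RNR1: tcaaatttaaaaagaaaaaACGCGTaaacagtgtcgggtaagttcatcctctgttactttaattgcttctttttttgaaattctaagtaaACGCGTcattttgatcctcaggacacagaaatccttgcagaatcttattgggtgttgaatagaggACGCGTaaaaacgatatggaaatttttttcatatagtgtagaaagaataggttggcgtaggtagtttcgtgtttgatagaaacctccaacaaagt
POL30: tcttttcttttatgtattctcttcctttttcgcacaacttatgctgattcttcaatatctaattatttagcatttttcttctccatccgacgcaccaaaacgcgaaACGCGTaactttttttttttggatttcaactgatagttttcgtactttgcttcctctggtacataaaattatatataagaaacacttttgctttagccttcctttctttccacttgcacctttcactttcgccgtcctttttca

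All 7 genes specific to a cells were lower in dcp2-ideg (median -1.35). MFA1, a gene of the a-factor pheromone (chromosome IV, 1385117 to 1385245, plus strand), measured 47.5, 37.7, 44.4 and 43.9 CPM in dcp2-ideg and 153, 187, 188 and 237 CPM in lsm1-ideg, a difference of -2.14 ± 0.18 (SE, adjusted p = 2.06e-09). MFA2, the other a-factor gene and a model of a short-lived mRNA, measured 190.2, 93.6, 211 and 179.9 CPM in dcp2-ideg and 352, 465, 509 and 595 CPM in lsm1-ideg, and the highest dcp2-ideg library was below the lowest lsm1-ideg one. BAR1, the protease that degrades alpha-factor, differed by -1.45 ± 0.08 (SE, adjusted p = 6.48e-12), and STE2, the receptor for alpha-factor, by -1.03 ± 0.10 (SE, adjusted p = 9.32e-09). Of 6 alpha-cell genes, SAG1 alone was called, higher, beside 17.5% higher and 34.2% lower among all protein-coding genes. SAG1 measured 69.7, 68.2, 74.7 and 38.5 CPM in dcp2-ideg and 35.3, 36.2, 36.9 and 36.7 CPM in lsm1-ideg. Meiosis and sporulation genes, which are silent or low in growing cells of one mating type, gave 19 higher of 42 (median 0.71). IME2, a meiotic kinase, measured 37.6, 35.4, 35.7 and 28 CPM in dcp2-ideg and 16, 14.7, 14.8 and 14.9 CPM in lsm1-ideg (1.18 ± 0.15 SE, adjusted p = 9.74e-07), and SPO1, a phospholipase-like meiotic protein, differed by 1.27 ± 0.17 (SE, adjusted p = 1.32e-06). The summed level of the list was 354 CPM in dcp2-ideg T60 against 225 in lsm1-ideg T60 and 223 in wt T60. In such bulk samples fewer cells of a kind and less RNA per cell cannot be told apart.

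The translation machinery was lower almost throughout. Of 138 ribosomal protein genes, 132 were lower and 1 higher, with a median of -0.96 and a summed level of 87763 CPM in dcp2-ideg T60, 171409 in lsm1-ideg T60 and 170107 in wt T60. At T0 the median was 0.13. With total counts the median was -0.49, and 98 were lower and 2 higher. The median's distance from that of all features was -1.03 with TMM and -1.02 with total counts. A change of scaling shifts all features of a library alike, so this distance could hardly move. RPL8A measured 98.7, 93.1, 82.6 and 77.8 CPM in dcp2-ideg and 293, 248, 274 and 229 CPM in lsm1-ideg and RPL7A 186, 195, 192 and 187 CPM in dcp2-ideg and 443, 429, 442 and 433 CPM in lsm1-ideg, both without overlap. RPL22B, a transcript whose splicing is known to be held back by the Rpl22 protein, was the member that was higher, at 0.61 ± 0.15 (SE, adjusted p = 0.00195). The 38 translation factors gave 37 lower (median -0.80), and 22 lower and 1 higher with total counts. EFB1, a subunit of elongation factor 1B (chromosome I, 142124 to 143260, plus strand), measured 1031, 959, 892 and 963 CPM in dcp2-ideg and 2772, 2499.5, 2554 and 2346 CPM in lsm1-ideg (-1.40 ± 0.08 SE, adjusted p = 1.63e-11). TEF1, for elongation factor 1A, differed by -1.01 ± 0.08 (SE, adjusted p = 6.25e-10), but has a near-identical copy, TEF2, so that reads may be shared between them. HYP2, the eIF5A gene of aerobic growth, differed by -1.17 ± 0.12 (SE, adjusted p = 2.1e-08).

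Ribosome biogenesis genes, whose products process ribosomal RNA, gave 81 lower of 83 (median -0.76, and -0.30 with total counts), and all 8 subunit genes of RNA polymerase I were lower. With total counts 41 of the 83 and 3 of the 8 were lower. CBF5, the pseudouridine synthase of the box H/ACA particles (chromosome XII, 506095 to 507783, plus strand), measured 438, 446, 414 and 391 CPM in dcp2-ideg and 817, 831, 809 and 782 CPM in lsm1-ideg, a difference of -0.94 ± 0.08 (SE, adjusted p = 4.01e-09), and wt T60 held 834 ± 33.7 CPM (SD, n = 4). BRX1, a factor of the large subunit, differed by -0.92 ± 0.09 (SE, adjusted p = 2.23e-08). RPA12 differed by -0.87 ± 0.09 (SE, adjusted p = 5.04e-08) and RPA43 by -0.74 ± 0.11 (SE, adjusted p = 3.8e-06). Mitochondrial ribosomal protein genes did not share this pattern as far as calls go: 8 of 68 were lower and 1 higher, the median was -0.01 (it turned to 0.46 with total counts), and MRPL22 was higher at 0.49 ± 0.11 (SE, adjusted p = 0.000556). Without dcp2-ideg replicate 2, 5 were lower and 2 higher.

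The ribosomal RNA processing element RRPE (AAAAATTTT, or AAAATTTTT on the other strand) was present in 67.5% of the 83 windows of ribosome biogenesis genes and in 8.03% of all windows, and in 16.01% of those of lower against 3.08% of those of higher genes. The PAC element (GCGATGAG, or CTCATCGC) was present in 55.4% of the ribosome biogenesis windows, 4.21% of all, 8.69% of those of lower and 1.09% of those of higher genes. The window of CBF5 (chrXII:505845-506094, plus strand) is shown, with 2 RRPE matches in capitals, as that of the ribosome biogenesis gene with the smallest adjusted p.
CBF5: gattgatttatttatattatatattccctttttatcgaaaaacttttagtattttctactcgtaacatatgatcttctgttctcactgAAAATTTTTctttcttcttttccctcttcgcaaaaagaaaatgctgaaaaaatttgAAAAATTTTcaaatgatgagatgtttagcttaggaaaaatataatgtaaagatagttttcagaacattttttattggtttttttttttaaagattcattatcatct

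**Figure D3:**
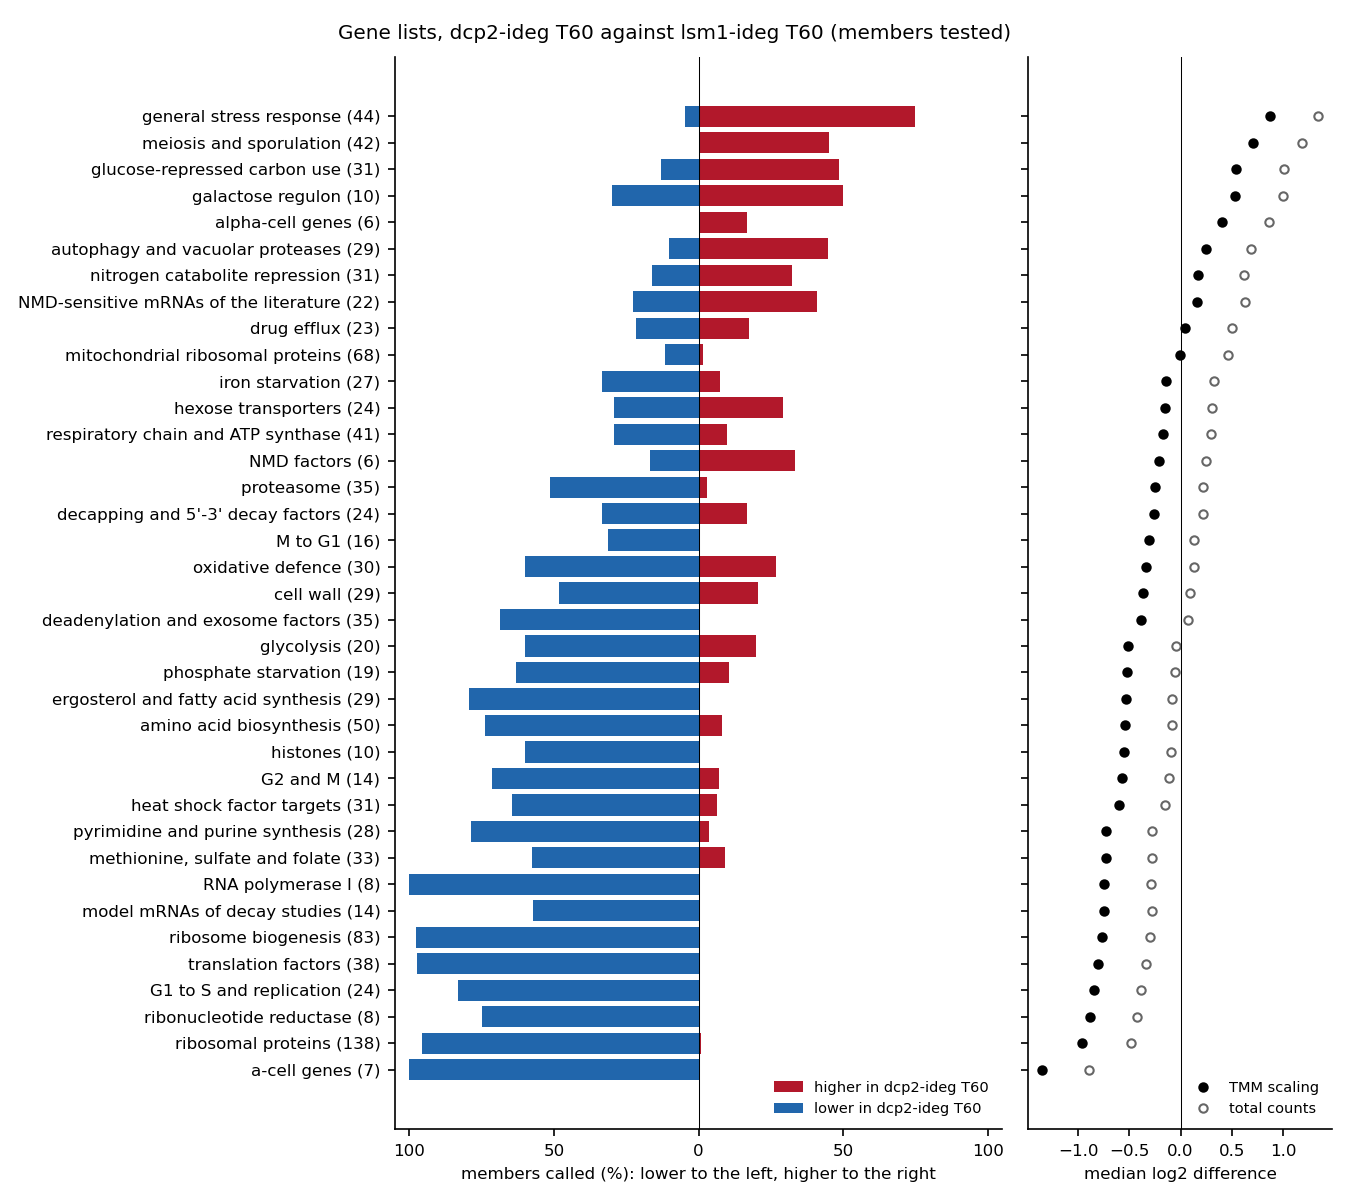
Left, the percentage of the tested members of each of 37 gene lists that were called lower (blue) or higher (red) in dcp2-ideg T60 against lsm1-ideg T60, with the number tested in brackets. Right, the median log2 difference of each list with TMM scaling (filled) and with total counts (open). The medians of 28 lists lay below 0 with TMM and those of 17 with total counts, with the ribosomal protein and a-cell lists far below under both.

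Targets of heat shock factor were lower in dcp2-ideg than in lsm1-ideg, and many were above wt in the latter: 20 of 31 were lower and 2 higher between the degron strains (median -0.61, and -0.15 with total counts, which gave 11 lower and 4 higher), while 18 were higher in lsm1-ideg T60 against wt T60 and 11 were higher and 10 lower in dcp2-ideg T60 against wt T60. STI1, an Hsp90 co-chaperone (chromosome XV, 380986 to 382882, plus strand), measured 476, 331, 431 and 292 CPM in dcp2-ideg and 909.8, 793, 908 and 939 CPM in lsm1-ideg, and 398 ± 12.1 CPM in wt T60. The groups did not overlap (-1.21 ± 0.16 SE, adjusted p = 7.59e-07); against wt the gene was -0.06 (adjusted p = 0.773) in dcp2-ideg and 1.16 (adjusted p = 4.91e-05) in lsm1-ideg. HSC82, the constitutive Hsp90 gene, measured 1695, 1369.7, 1704 and 1797 CPM in dcp2-ideg and 3606, 3207, 3449 and 3504 CPM in lsm1-ideg, without overlap, and was -0.42 (adjusted p = 0.00324) against wt in dcp2-ideg and 0.64 (adjusted p = 0.00148) in lsm1-ideg. HSP82, the inducible Hsp90 gene, measured 492, 309, 480.2 and 354 CPM in dcp2-ideg and 676, 434, 685 and 753 CPM in lsm1-ideg, and these libraries overlapped. It was above wt in both strains, by 1.19 (adjusted p = 9.43e-05) and 1.83 (adjusted p = 1.97e-05), and its difference of -0.64 ± 0.22 (SE, adjusted p = 0.0219) between them missed the threshold with total counts, among genes of at least 10 CPM, among protein-coding genes alone, and without any 1 of dcp2-ideg replicates 2 and 4 or lsm1-ideg replicate 4 (adjusted p up to 0.466). AHA1, the activator of the Hsp90 ATPase, was likewise above wt in both, by 1.15 (adjusted p = 9.22e-09) and 1.44 (adjusted p = 8.06e-09), and its difference of -0.29 ± 0.11 (SE, adjusted p = 0.037) turned to 0.16 with total counts. That call was also lost with protein-coding genes alone (-0.12, adjusted p = 0.342), among genes of at least 10 CPM, with only the 8 T60 libraries, and without any 1 of dcp2-ideg replicates 2 and 4 or lsm1-ideg replicates 1 and 3.

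SSA2 encodes an Hsp70 and is nearly identical to SSA1. It measured 3144, 2367, 3015 and 2147 CPM in dcp2-ideg and 7060.2, 6211, 6731 and 6502 CPM in lsm1-ideg, and was -0.39 (adjusted p = 0.0101) against wt in dcp2-ideg and 0.92 (adjusted p = 4.91e-05) in lsm1-ideg. YDJ1, an Hsp40 partner of Hsp70, differed between the strains by -0.97 ± 0.12 (SE, adjusted p = 6.02e-07) and SSE1, its nucleotide exchange factor, by -1.07 ± 0.13 (SE, adjusted p = 2.59e-07), and both lay below wt in dcp2-ideg and above it in lsm1-ideg. BTN2, an aggregate-sorting factor, measured 29.5, 20.9, 29 and 38.6 CPM in dcp2-ideg and 63.3, 38.8, 72 and 105.3 CPM in lsm1-ideg, and wt T60 held 24.9 ± 6.63 CPM. CPR1, a cyclophilin, differed by -0.93 ± 0.09 (SE, adjusted p = 1.54e-08). A heat shock element (HSE, in 3 alternating units on either strand) was present in 45.2% of the 31 windows of this list and 0.817% of all. It was found in 1.07% of the windows of lower and 0.596% of those of higher genes. Among genes at least 2-fold lower or higher the shares were 4.26% and 0.356%.

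Of 8 genes of ribonucleotide reductase and its regulators 6 were lower (4 lower and 1 higher with total counts), at unequal distances from wt. RNR2, a small-subunit gene (chromosome X, 392341 to 393741, plus strand), measured 538, 486, 416 and 435 CPM in dcp2-ideg and 1366, 1163, 1041 and 968 CPM in lsm1-ideg against 245 ± 15.3 CPM in wt T60. It was above wt in both strains, by 0.93 (adjusted p = 2.2e-07) and 2.21 (adjusted p = 2.25e-12), and the difference between them was -1.28 ± 0.11 (SE, adjusted p = 4.01e-09). RNR4, the other small subunit, measured 163, 174, 131 and 153 CPM in dcp2-ideg and 383, 333, 312 and 301 CPM in lsm1-ideg and lay below wt in both, at -1.60 (adjusted p = 1.44e-11) and -0.50 (adjusted p = 0.00417). RNR1, described above, was at 447 ± 25.7 CPM in wt T60, within the range of lsm1-ideg. Proteasome and ubiquitin genes gave 18 lower and 1 higher of 35, the lower ones lying between -0.49 and -0.19. The member that was higher was UBI4, the polyubiquitin gene induced by stress, at 419, 396, 416 and 458 CPM in dcp2-ideg and 189.8, 163, 155 and 143 CPM in lsm1-ideg. With total counts 0 were lower and 10 higher, and fitting the protein-coding genes alone gave 6 lower and 1 higher. The list's median of -0.25 turned to 0.21 with total counts, and so did the value of RPN6, from -0.35 to 0.11.

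Of 29 cell wall genes 14 were lower and 6 higher, beside 34.2% and 17.5% of all protein-coding genes. Their median of -0.36 turned to 0.09 with total counts. CWP1, a mannoprotein, measured 110.5, 90.5, 98.2 and 57.3 CPM in dcp2-ideg and 32.2, 30.2, 28.7 and 20.4 CPM in lsm1-ideg, without overlap. It was -0.45 (adjusted p = 0.184) against wt in dcp2-ideg and -2.12 (adjusted p = 5.25e-05) in lsm1-ideg, and 1.68 ± 0.28 (SE, adjusted p = 3.24e-05) between the degron strains. TIP1, a mannoprotein induced by cold and heat, measured 211, 213, 172 and 154 CPM in dcp2-ideg and 459.6, 453, 457 and 578 CPM in lsm1-ideg, and was -0.80 (adjusted p = 0.000163) against wt in dcp2-ideg and 0.58 (adjusted p = 0.0364) in lsm1-ideg. SCW10, a glucanase-like wall protein, was lower at -1.52 ± 0.13 (SE, adjusted p = 1.33e-09) and PIR3, a wall protein bound to glucan, higher at 1.98 ± 0.17 (SE, adjusted p = 2.25e-09).

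Of 20 glycolysis and fermentation genes 12 were lower and 4 higher, beside 34.2% and 17.5% of all protein-coding genes. Those higher were HXK1, GLK1, ENO1 and TDH1. With total counts 5 of the 20 were lower and 6 higher. GLK1, glucokinase, measured 202, 133, 201 and 174 CPM in dcp2-ideg and 66.4, 52.4, 64.7 and 52.7 CPM in lsm1-ideg (1.59 ± 0.19 SE, adjusted p = 2.27e-07), and HXK2, the hexokinase of growth on glucose, 651, 705, 616 and 681 CPM in dcp2-ideg and 1283, 1467, 1337 and 1401 CPM in lsm1-ideg (-1.05 ± 0.08 SE, adjusted p = 9.96e-10). Neither gene's groups overlapped. ENO1, one enolase, had 615, 432, 551 and 508 CPM in dcp2-ideg and 361, 236, 277 and 207 CPM in lsm1-ideg, whereas ENO2, the enolase of growth on glucose, had 6868, 5964, 6775 and 4946 CPM and 12026, 10804, 11933 and 11198 CPM. TDH1 differed by 1.01 ± 0.27 (SE, adjusted p = 0.00388). Among 24 hexose transporters and their regulators 7 were lower and 7 higher, beside 34.2% and 17.5% of all protein-coding genes. Their median of -0.15 turned to 0.31 with total counts. Without lsm1-ideg replicate 1 they gave 8 lower and 4 higher, and without lsm1-ideg replicate 4, 7 lower and 4 higher. HXT1, a low-affinity transporter of high glucose, measured 239, 279, 219 and 136 CPM in dcp2-ideg and 584, 748, 799 and 724 CPM in lsm1-ideg (-1.71 ± 0.22 SE, adjusted p = 9.13e-07), HXT3 differed by -1.21 ± 0.24 (SE, adjusted p = 0.000202), and MIG2, a glucose repressor, by -1.58 ± 0.25 (SE, adjusted p = 1.58e-05). HXT7, a high-affinity transporter with a near-identical copy in HXT6, was higher, at 0.84 ± 0.23 (SE, adjusted p = 0.00419). HXT2 had 211, 517, 205 and 153 CPM and 455, 1153, 499 and 492 CPM, and its difference of -1.26 ± 0.44 (SE, adjusted p = 0.0212) missed the threshold in 6 of the other settings (adjusted p up to 0.132).

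Genes repressed by glucose gave 15 higher and 4 lower of 31 (median 0.54), beside 17.5% and 34.2% of all protein-coding genes. Fits without 1 of the T60 libraries gave 10 to 14 higher and 3 to 4 lower. IDP2, the cytosolic isocitrate dehydrogenase, measured 26.3, 25.6, 24.4 and 23.7 CPM in dcp2-ideg and 10.3, 10.7, 10.3 and 11.9 CPM in lsm1-ideg (1.21 ± 0.13 SE, adjusted p = 4.52e-08). MDH2, the cytosolic malate dehydrogenase, went the other way at 120.0, 94.7, 103 and 102 CPM in dcp2-ideg and 286, 306, 289.7 and 296 CPM in lsm1-ideg, and was -0.90 (adjusted p = 3.61e-07) against wt in dcp2-ideg and 0.59 (adjusted p = 0.0026) in lsm1-ideg. The galactose regulon gave 5 higher and 3 lower of 10, beside 17.5% and 34.2% of all protein-coding genes. GCY1, an aldo-keto reductase, was at 1.46 ± 0.10 (SE, adjusted p = 1.16e-10). GAL7, the uridyltransferase, was at 1.79 ± 0.24 (SE, adjusted p = 1.75e-06) from 12.5 CPM or less in every library. Without dcp2-ideg replicate 4 the regulon gave 6 higher and 0 lower, and without dcp2-ideg replicate 3 or lsm1-ideg replicate 2, 5 higher and 1 lower. Respiratory chain genes gave 12 lower and 4 higher of 41, where the shares among all protein-coding genes were 34.2% and 17.5%, with CYC1, cytochrome c, at -0.85 ± 0.14 (SE, adjusted p = 1.7e-05) and SDH3, a subunit of succinate dehydrogenase, at -0.56 ± 0.11 (SE, adjusted p = 0.000107), and the median of -0.17 turned to 0.30 with total counts.

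Of 33 genes of methionine, sulfate and folate use, 19 were lower and 3 higher (median -0.73), or 15 lower and 10 higher with total counts, and the lower ones included genes of the methyl cycle and of methionine uptake. SAM2 and SAM1, the S-adenosylmethionine synthetases, differed by -1.60 ± 0.11 (SE, adjusted p = 1.23e-10) and -1.30 ± 0.10 (SE, adjusted p = 9.64e-10), and the SAM2 values were 76, 57.9, 70.4 and 65.2 CPM in dcp2-ideg and 230.1, 195, 209 and 184 CPM in lsm1-ideg. MUP1, the high-affinity methionine permease, measured 78.9, 62.2, 87.4 and 55.7 CPM in dcp2-ideg and 161, 174, 186 and 247 CPM in lsm1-ideg. The members that were higher were MET1, STR2 and MET3, at 1.15, 0.78 and 0.32. MET2, the homoserine acetyltransferase, measured 6.16, 5.69, 6.52 and 8.09 CPM in dcp2-ideg and 11.6, 12.7, 14.6 and 14.3 CPM in lsm1-ideg, a difference of -1.01 ± 0.17 (SE, adjusted p = 2.86e-05) that had the opposite sign at T0 (0.86, adjusted p = 0.0143), when the means were 27.9 ± 2.38 CPM in dcp2-ideg and 15.4 ± 1.79 CPM in lsm1-ideg. Among the features called at both times it was the one that changed sign. The E-box CACGTG, the same on both strands, was present in 42.4% of the 33 windows of this list and 4.02% of all. Over all called genes its shares lay near the latter, at 4.47% of the windows of lower and 3.68% of those of higher genes.

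Amino acid biosynthesis gave 37 lower and 4 higher of 50 (median -0.54), and 15 lower and 11 higher with total counts (median -0.09), with ARO2, chorismate synthase, at -1.002 ± 0.09 (SE, adjusted p = 2.93e-09) and LYS4, homoaconitase, at -0.95 ± 0.09 (SE, adjusted p = 4.44e-09). Sterol and fatty acid synthesis gave 23 lower of 29, and 8 lower and 3 higher with total counts (median -0.08). ERG11, the target of azole drugs, measured 305, 314, 307 and 313 CPM in dcp2-ideg and 731, 813, 748 and 766 CPM in lsm1-ideg (-1.30 ± 0.08 SE, adjusted p = 4.5e-11). ERG3, a desaturase, differed by -1.01 ± 0.09 (SE, adjusted p = 4.01e-09). Nucleotide synthesis gave 22 lower and 1 higher of 28, and 12 lower and 4 higher with total counts. IMD2, an IMP dehydrogenase, was lower at -1.13 ± 0.10 (SE, adjusted p = 4.54e-09), and the member that was higher was URA10, a minor orotate phosphoribosyltransferase, at 44.8, 45.5, 42.8 and 62.9 CPM in dcp2-ideg and 15, 14.7, 14.8 and 12.5 CPM in lsm1-ideg. Phosphate genes gave 12 lower and 2 higher of 19, and 4 lower and 5 higher with total counts (median -0.06), with VTC1, a polyphosphate synthase subunit, at -0.91 ± 0.11 (SE, adjusted p = 4.06e-07), and PHO11, which has near-identical copies, at -1.36 ± 0.17 (SE, adjusted p = 7.85e-07) and -0.89 (adjusted p = 0.0143) at T0.

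Iron genes gave 9 lower and 2 higher of 27, beside 34.2% and 17.5% of all protein-coding genes, and their median of -0.14 turned to 0.33 with total counts. FET3, the oxidase of high-affinity iron uptake, measured 179.5, 197, 172 and 145 CPM in dcp2-ideg and 623, 670.1, 565 and 537 CPM in lsm1-ideg, without overlap (-1.79 ± 0.19 SE, adjusted p = 6.88e-08), while FRE2 and FRE3, surface reductases, were higher at 1.38 ± 0.12 (SE, adjusted p = 2.06e-09) and 1.21 ± 0.13 (SE, adjusted p = 3.91e-08). Nitrogen-repressed genes gave 10 higher and 5 lower of 31, beside 17.5% and 34.2% of all protein-coding genes. DUR3, the urea transporter, measured 42, 46.8, 46.8 and 49.3 CPM in dcp2-ideg and 13.5, 17.5, 14.6 and 17.9 CPM in lsm1-ideg (1.54 ± 0.12 SE, adjusted p = 5.13e-10), and GLN1, glutamine synthetase, measured 199, 208, 163 and 123 CPM in dcp2-ideg and 602, 495, 486 and 506 CPM in lsm1-ideg (-1.59 ± 0.14 SE, adjusted p = 3.89e-09). Genes of oxidative defence gave 18 lower and 8 higher of 30, beside 34.2% and 17.5% of all protein-coding genes. Their median of -0.33 turned to 0.13 with total counts. MXR1, methionine sulfoxide reductase, was lower at -1.33 ± 0.13 (SE, adjusted p = 2.23e-08) and GPX1, a glutathione peroxidase, higher at 1.83 ± 0.17 (SE, adjusted p = 4.9e-09). Autophagy genes and vacuolar proteases gave 13 higher and 3 lower of 29. ATG29, a scaffold subunit of the autophagosome site, measured 43.7, 40.9, 42.2 and 41.9 CPM in dcp2-ideg and 16.3, 11, 12.5 and 11.1 CPM in lsm1-ideg (1.73 ± 0.16 SE, adjusted p = 6.03e-09), and ATG16, part of the Atg8 conjugation enzyme, differed by 1.85 ± 0.18 (SE, adjusted p = 1.92e-08). Drug efflux genes gave 4 higher and 5 lower of 23, again beside 17.5% and 34.2% of all protein-coding genes, with QDR1 at 0.88 ± 0.14 (SE, adjusted p = 1.91e-05) and FLR1 at 0.78 ± 0.13 (SE, adjusted p = 1.59e-05).

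Of 24 decapping and 5'-3' decay factors, DCP2 and LSM1 included, 8 were lower and 4 higher, shares near the 34.2% and 17.5% of all protein-coding genes (median -0.26, which turned to 0.22 with total counts). DCP1, the activating partner of Dcp2, measured 33.1, 31.1, 26.3 and 37.8 CPM in dcp2-ideg and 54.7, 47.3, 45.6 and 50.02 CPM in lsm1-ideg (-0.62 ± 0.15 SE, adjusted p = 0.00134), and with total counts its difference was -0.15 (adjusted p = 0.440). DCS1, the scavenger decapping enzyme, and its paralogue DCS2 were higher at 0.74 ± 0.11 (SE, adjusted p = 4.81e-06) and 1.54 ± 0.19 (SE, adjusted p = 4.01e-07), and DCS2 measured 25.1, 19.5, 25.3 and 21.1 CPM in dcp2-ideg and 8.45, 7.35, 8.87 and 6.56 CPM in lsm1-ideg. PAT1, the partner of Lsm1-7, differed by -0.45 ± 0.18 (SE, adjusted p = 0.0449), a call that was lost in 8 other settings (adjusted p up to 0.993 with total counts), with -0.28 without dcp2-ideg replicate 4. XRN1 measured 284, 252, 286 and 145 CPM in dcp2-ideg and 286, 268, 272 and 267 CPM in lsm1-ideg. Those libraries overlapped, dcp2-ideg replicate 4 was lowest, the difference was -0.18 ± 0.19 (SE, adjusted p = 0.478), and its sign turned without that library (0.0038) and with total counts (0.27). EDC1, an enhancer of decapping, had 0.12 (adjusted p = 0.635), and -0.032 without dcp2-ideg replicate 3.

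Factors of deadenylation and of the exosome gave 24 lower of 35 with TMM and 3 lower and 7 higher with total counts, where the median of -0.39 turned to 0.08. MTR4, the helicase of the nuclear exosome, measured 147, 176, 159 and 137 CPM in dcp2-ideg and 249, 282, 261 and 278 CPM in lsm1-ideg (-0.79 ± 0.09 SE, adjusted p = 1.04e-07) and PAP2, the poly(A) polymerase of the TRAMP complex, differed by -0.77 ± 0.11 (SE, adjusted p = 2.93e-06). Of 6 factors of nonsense-mediated decay (NMD) 2 were higher and 1 lower, beside 17.5% and 34.2% of all protein-coding genes. NMD4 was at 0.85 ± 0.15 (SE, adjusted p = 4.81e-05) and EBS1 at 0.27 ± 0.08 (SE, adjusted p = 0.0101). The median of the 6 factors, -0.21, turned to 0.24 with total counts. The EBS1 call was lost with only the 8 T60 libraries (adjusted p = 0.0580) and without dcp2-ideg replicate 3 (adjusted p = 0.0525). Without any 1 of dcp2-ideg replicates 1 and 4 or lsm1-ideg replicates 2, 3 and 4 no NMD factor was lower. Of 22 mRNAs described in the literature as NMD-sensitive, 9 were higher and 5 lower (median 0.16), beside 17.5% and 34.2% of all protein-coding genes. TEN1 and STN1, which encode telomere-capping proteins, differed by 1.51 ± 0.15 (SE, adjusted p = 1.31e-08) and 1.46 ± 0.16 (SE, adjusted p = 6.02e-08), and EST2, the telomerase reverse transcriptase, by 1.08 ± 0.12 (SE, adjusted p = 9.75e-08). STN1 measured 69.4, 74, 65 and 97.5 CPM in dcp2-ideg and 28.8, 29, 24.5 and 29.1 CPM in lsm1-ideg, and EST2 35, 44.8, 38.9 and 40.4 CPM in dcp2-ideg and 18, 17.2, 18 and 22 CPM in lsm1-ideg, both without overlap. URA3, a nucleotide synthesis gene often used as a marker in strain construction, measured 7.03, 5.04, 5.52 and 4.69 CPM in dcp2-ideg and 14.7, 16, 11.7 and 17.1 CPM in lsm1-ideg, but only 0.360 ± 0.0979 CPM in wt T60, so that its wt level gives no reference for the degron strains. At T0 it had been at 25.8 ± 8.96 CPM in dcp2-ideg and 36.3 ± 4.39 CPM in lsm1-ideg, and the difference at T60 was -1.42 ± 0.23 (SE, adjusted p = 1.72e-05).

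Most of the XUTs and SUTs that were called were higher in dcp2-ideg. Over all features tested, 25.1% were higher and 20.8% lower. Of 1657 XUTs tested, 849 were higher and 42 lower. Of 766 that overlap no other feature on their strand, 315 were higher (41.1%) and 21 lower (2.74%), with a median of 0.73, against 0.03 at T0. Stable unannotated transcripts (SUTs) alone on their strand gave 49 higher (29.0%) and 13 lower (7.69%) of 169 (median 0.38). Cryptic unstable transcripts (CUTs), which the nuclear exosome is known to remove, gave 26 higher and 11 lower of 163 (0.33). Without dcp2-ideg replicate 2 they gave 16 higher and 14 lower, and without dcp2-ideg replicate 3, 22 higher and 7 lower. The second set of cryptic transcripts, CUT_GIM, gave 20 higher (8.66%) and 25 lower (10.8%) of 231 (0.26). In lsm1-ideg T60 against wt T60, 31 of the 766 XUTs were higher and 1 lower, and in dcp2-ideg T60 against wt T60, 382 were higher and 22 lower. Introns alone on their strand gave 20 higher (8.40%) and 30 lower (12.6%) of 238 (median -0.18), and their sign turned with total counts (0.29). The 25.1% and 20.8% over all features take in overlapping ones, so they are not a like base for features alone on their strand. Of protein-coding genes alone on their strand, 16.7% were higher and 34.9% lower. With overlapping members included, 452 of 836 SUTs were higher (54.1%) and 30 lower (3.59%). The shares higher and lower were then 24.7% and 7.06% for CUTs, 19.6% and 14.1% for CUT_GIM, and 8.46% and 14.2% for introns.

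Features alone on their strand were also summed for 9 classes as a share of the counts of the library. Such a share compares libraries as total counts do, where the median of all features was 0.53 on the log2 scale, and not as TMM does, which gave introns and CUT_GIM more lower than higher calls and snoRNAs a median of 0.05. XUTs took 0.492%, 0.519%, 0.465% and 0.519% of the counts of the dcp2-ideg T60 libraries and 0.215%, 0.201%, 0.209% and 0.211% of the lsm1-ideg T60 libraries. The means of 0.498 ± 0.0258% and 0.209 ± 0.00602% (SD, n = 4) were 2.39 times apart (exact two-sided permutation test over libraries, p = 0.0286, the smallest that 4 against 4 can give, and 0.0367 adjusted over the 9 classes). SUTs were 2.05 times apart (0.134% against 0.0652%), CUTs 1.62 times (0.0353% against 0.0217%), CUT_GIM 1.26 times, introns 1.56 times, snoRNAs 1.66 times and the 4 transposon features of this kind 1.79 times, each with the same p by the exact permutation test and no overlap of libraries. Dubious open reading frames (1.10 times, exact permutation p = 0.257) and protein-coding genes (54.3% against 57.0%, exact permutation p = 0.0571) did not pass. Without any 1 of the lsm1-ideg libraries the exact permutation test of 4 against 3 gave adjusted p of 0.0643 to 0.0964 for these 7 classes. Over all features of the class, CUT_GIM turned to a lower share in dcp2-ideg (at -0.331 percentage points), the snoRNA and transposon shares no longer passed, and that of protein-coding genes passed (-5.22 percentage points).

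**Figure D4:**
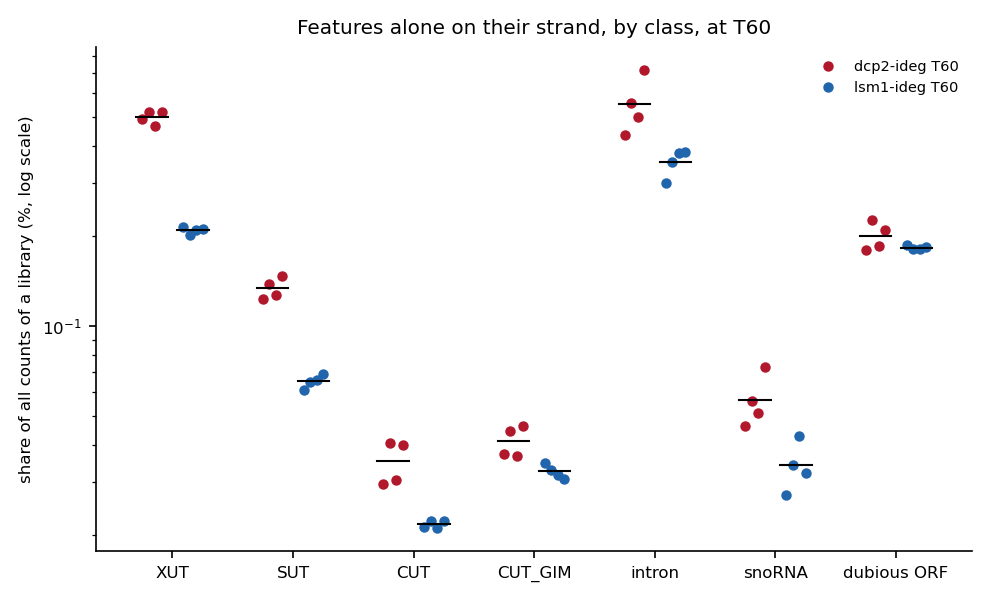
Share of a library's counts (percent, log scale) taken by features alone on their strand in 7 classes, for the 4 dcp2-ideg T60 (red) and 4 lsm1-ideg T60 (blue) libraries, with lines at the group means. XUT, SUT, CUT, CUT_GIM, intron and snoRNA shares did not overlap between the groups, and those of dubious open reading frames did.

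Single transcripts show the range. XUT_5F-62 (chromosome V, 137039 to 138523, plus strand) measured 15.6, 15.8, 13.4 and 21 CPM in dcp2-ideg and 1.96, 1.70, 1.97 and 1.57 CPM in lsm1-ideg, a difference of 3.19 ± 0.31 (SE, adjusted p = 1.31e-08) against 0.27 at T0. XUT_4R-342 (chromosome IV, 819739 to 820869, minus strand) measured 10.2, 9.71, 9.36 and 11.7 CPM in dcp2-ideg and 1.59, 0.674, 1.45 and 0.628 CPM in lsm1-ideg (3.23 ± 0.35 SE, adjusted p = 5.63e-08). XUT_12F-188 (chromosome XII, 460075 to 460602, plus strand) had the largest difference, 3.62 ± 0.28 (SE, adjusted p = 5.94e-10), with 139.5, 96.9, 90.2 and 58.6 CPM in dcp2-ideg and 6.97, 6.47, 7.55 and 10.3 CPM in lsm1-ideg, but it was as large at T0 (3.498, adjusted p = 5.28e-08), and it lies in the ribosomal DNA. The 3 lower noncoding features alone on their strand with the largest differences were dubious or uncharacterised reading frames, MMO1 (-1.80), YDL228C (-1.55) and YLR339C (-1.50). YDL228C lies beside HO, and MMO1 beside PHD1, both on the strand of that neighbour and both neighbours being among the largest lower genes.

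Few features distinguished the strains before the treatment. Of the 27 called at T0, 23 were called with the same sign at T60, MET2 with the other sign, and 3 were not called at T60. Besides LSM1, CUT207, COS8 and HSP12, the group held features of the ribosomal DNA on chromosome XII, among them RDN5-1 (3.01 at T0 and 2.99 at T60) and YLR154C-H. The latter differed by 3.49 (adjusted p = 2.11e-05) at T0 and 2.09 ± 0.41 (SE, adjusted p = 0.000156) at T60, and has near-identical copies in the repeat. YRO2, a plasma membrane protein of stressed cells, measured 84.8, 75.3, 75.1 and 131 CPM in dcp2-ideg and 34, 24.9, 23.7 and 15.6 CPM in lsm1-ideg at T60, without overlap (1.90 ± 0.28 SE, adjusted p = 6.53e-06), after 1.47 (adjusted p = 0.0141) at T0. Neighbouring features near the end of chromosome IX, YIR042C and YIR043C, were lower at T0, at -2.32 and -3.41, and measured -1.03 and -1.21 at T60, where YIR043C was not called (adjusted p = 0.0615).

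The direction of a protein-coding gene's difference went with its level in untreated wt cells, a measurement that the compared libraries do not enter. Genes without a near-identical copy were divided into 5 groups of equal size by their CPM per kilobase in wt T0. From the lowest to the highest group the share that was higher in dcp2-ideg was 43.4%, 24.4%, 13.04%, 4.94% and 1.35%, and the share that was lower was 6.29%, 18.6%, 25.4%, 43.2% and 78.4%. The median log2 difference ran from 0.40 to -0.61 with TMM and from 0.86 to -0.15 with total counts, and at T0 from -0.041 to -0.00012. Groups by feature length showed a smaller range, with 12.3% to 20.5% higher and 31.2% to 37.6% lower. Counting precision differs between the level groups, and the part of this in the shares called was not tested.

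**Figure D5:**
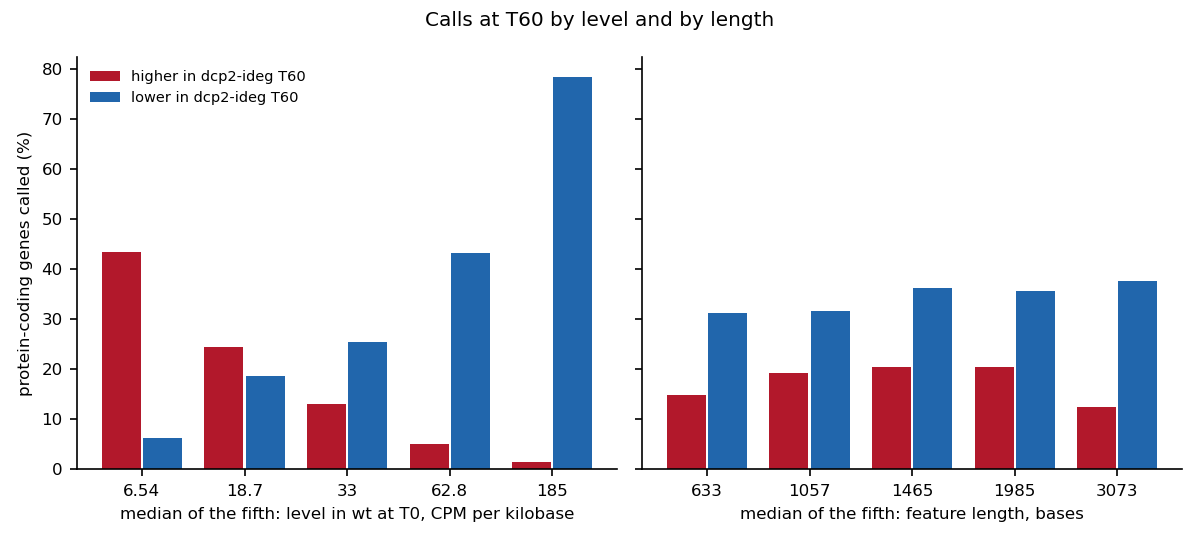
Percentage of protein-coding genes called higher (red) or lower (blue) in dcp2-ideg T60 against lsm1-ideg T60, in 5 groups of equal size by level in wt T0 (left) and by feature length (right). The share that was lower climbs from 6.29% to 78.4% with level and stays between 31.2% and 37.6% with length.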

How the data were processed

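Poly(A)-selected, strand-specific RNA libraries (dUTP) were read as deposited: whole-number read counts per feature, which the authors made with STAR and featureCounts on sacCer3, per the submitters' processing notes (versions not given in the sources used here). How overlapping features were counted was not given either. Groups came from the sample labels.

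Differences were fitted with edgeR 4.0.16 (limma 3.58.1, R 4.3.3): TMM scaling, filterByExpr, a mean per group over all 24 libraries, quasi-likelihood test, Benjamini-Hochberg adjustment over 11776 features (513 were left out). CPM, summaries and figures used Python 3.11.15, pandas 2.3.3, numpy 2.4.6 and matplotlib 3.10.9. Near-identical copies (at least 95% identity over 50% of the length) were found with blastn 2.17.0. Class shares were compared with an exact two-sided permutation test. The steps were tested on simulated data with 200 of 11744 features changed 2-fold between dcp2-ideg and lsm1-ideg at T60, of which 146 were recovered with 5 false calls. As many were raised as lowered and no shift of the whole library was simulated, so this could not test the choice of scaling.

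The members and lists were chosen with earlier results of these data known. DCP2 and LSM1 were named as the targets. The 10 largest genes each way had no near-identical copy, were called, reached 10 CPM in a group and did not overlap between the groups. The 3 noncoding features each way were alone on their strand and met the same conditions on call, CPM and overlap. Up to 2 called members per list were named by adjusted p, and genes also called at T0 by the size of their T60 difference. Those 2 sets met no condition on copies, CPM or overlap. Other genes were named after their values were seen: RTC3, HSP82, HSC82, STI1, CWP1, URA3, GLK1, ENO1, TDH1, HXT2, HXT3, HXT7, DCS1, DCP1, PAT1, XRN1, EDC1, CLN2, GSY2, GLC3, GPH1, TSL1, DDR2, TIP1, BTN2, AHA1, MFA2, STE2, RNR4, FET3, RPL22B, EST2, YDJ1, SSE1, SAM1, MUP1 and the features set beside them. Alternatives were other scalings and filters, DESeq2 1.42.0, the replicate block, and leaving out libraries. Promoter windows were read from R64, whose coding sequences lay inside the deposited feature for 93.2% of those matched.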

Additional observations from a re-analysis of the deposited data

Results flagged for a closer look

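At T60 the difference between the strains departed from that at T0 for 3361 features by edgeR's quasi-likelihood test of the change.

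Among 268 groups of 4 values of named features, 12 held a library far from the others, against 13.4 expected by chance, which flags about 1 in 20 groups. HXT2 was high in replicate 2 of both strains, at 517 CPM in dcp2-ideg (others 153 to 211) and 1153 CPM in lsm1-ideg (others 455 to 499). In dcp2-ideg T60 replicate 4, URA10 was at 62.9 CPM (others 42.8 to 45.5), FLR1 at 75.8 CPM (others 113 to 117) and TEF1 at 6821 CPM (others 7643 to 7780). BRX1 was at 155 CPM in dcp2-ideg T60 replicate 2 (others 124 to 127). In lsm1-ideg T60 replicate 4, PPT2 was at 7.15 CPM (others 8.52 to 8.60), GCY1 at 24.8 CPM (others 29.8 to 30.4), URA10 at 12.5 CPM (others 14.7 to 14.98) and TIP1 at 578 CPM (others 453 to 460). GLN1 was at 602 CPM in lsm1-ideg T60 replicate 1 (others 486 to 506), and STN1 at 24.5 CPM in replicate 3 (others 28.8 to 29.1).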

How the results depend on the processing

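Of 2137 values of 134 named features under other settings, 2094 kept direction and side of the threshold, 36 lost the call, 1 gained it (EDC1, total counts) and 6 reversed: with total counts MRPL35 (0.084), RPN6 (0.11), XRN1 (0.27) and AHA1 (0.16), without dcp2-ideg T60 replicate 4 XRN1 (0.0038), and without dcp2-ideg T60 replicate 3 EDC1 (-0.032). Total counts gave 5760 higher and 685 lower at T60, 3726 and 370 for the change from T0, and 6210 and 792 in dcp2-ideg against wt. Protein-coding features alone gave 2821 calls at T60 (1515 higher, 1306 lower), 16 at T0 (11 and 5), 1776 for the change (969 and 807) and 3254 in dcp2-ideg against wt (1766 and 1488). At least 10 CPM gave 3604 at T60 (1614 lower), 16 at T0 (12 and 4) and 3985 in dcp2-ideg against wt (2159 higher). Features alone on their strand gave 2953 at T60 (1242 higher), 14 at T0 (7 higher) and 1810 for the change (738 higher). DESeq2 gave 49 at T0 (35 and 14) and 731 in lsm1-ideg against wt (463 and 268). The cause of these moves was not tested.

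Same-numbered T60 libraries correlated at 0.0399 to 0.122 in their deviations and others at -0.105 to 0.0719. The same-numbered values were weak but all positive and mostly above the others. What libraries of the same number share was not given in the labels, and the main fit did not include the number. The replicate block gave 5688 calls at T60, 3685 for the change and 47 at T0 (32 higher, 15 lower).

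Leaving out 1 library gave 4860 to 5080 calls at T60 (2515 to 2720 higher, 2222 to 2455 lower), 26 to 29 at T0 (19 to 23 higher, 4 to 9 lower), 2982 to 3911 for the change (1567 to 1927 higher, 1415 to 1984 lower), and, without wt T60 replicate 3, 5983 in dcp2-ideg (3219 and 2764) and 340 in lsm1-ideg against wt (223 and 117). XRN1 ranged from -0.29 to 0.0038 and EDC1 from -0.032 to 0.23. Class shares (percentage points, dcp2-ideg minus lsm1-ideg) then ranged from 0.283 to 0.301 for XUT, 0.0642 to 0.0719 for SUT, 0.0117 to 0.0154 for CUT, 0.00685 to 0.0101 for CUT_GIM, 0.144 to 0.238 for introns, 0.0171 to 0.0260 for snoRNA, 0.0842 to 0.113 for transposons, 0.00903 to 0.0246 for dubious frames and -3.49 to -2.02 for protein-coding genes. Over all features, not only those alone on their strand, they were -0.331 for CUT_GIM, -5.22 for protein-coding genes, 0.0194 for snoRNA and 1.45 for transposons. Depth limits the features of few counts, of which 513 were not tested.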
